A study of Mus musculus with 9 samples.

Results

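The genes described here make cholesterol, or hold its synthesis in check, and were measured in mouse epiblast stem cells (EpiSC), a pluripotent line type that resembles the embryo's epiblast once it has implanted. The list holds 7 genes. Hmgcs1, Mvd, Idi1, Fdft1, Sqle and Lss encode enzymes of sterol synthesis, and Insig1 encodes a sterol sensor of the endoplasmic reticulum. Every probe whose symbol in the deposited signal table is one of these names was taken. That gave 11 probes, of 45281 in all, for 5 of the 7 genes. For Hmgcs1 and Fdft1 no probe was matched by symbol or by an unambiguous synonym, and they are not analysed here. A probe was kept if its detection p-value was below 0.05 on at least 3 of the 9 arrays. This left 8 of the 11 probes and all 5 matched genes, of 13204 genes tested. Each of the 3 probes left out, 1 each of Insig1, Lss and Sqle, was detected on 0 of the 9 arrays. The list was named for synthesis and uptake, yet none of its 7 genes is a lipoprotein receptor. Uptake genes are therefore given further on as a list of their own.

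The data are 9 Illumina bead arrays of 1 colour, in 3 groups of 3 biological replicates. The cells of all groups were male, of a 129 background, carried a dsRed2 red fluorescent reporter and grew with activin A at 20 ng/ml and bFGF at 10 ng/ml. The CHIRON group had 3 µM CHIRON for 48 h. The dsRed2+ and dsRed2- groups were untreated cells sorted by that reporter. The labels give only the name CHIRON, which commonly stands for CHIR99021, a GSK3 inhibitor that switches on Wnt/β-catenin signalling. They name neither the element that drives dsRed2 nor whether the treated cells were sorted. If the treated cells were not sorted, CHIRON treatment and the absence of sorting cannot be told apart. Nothing states that the replicates came from separate cultures, so p-values measure the spread between these samples.

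Cholesterol is built from acetyl-CoA in a chain of enzymes. The mevalonate arm ends in farnesyl diphosphate, squalene is then closed into lanosterol, the first sterol, and later enzymes trim lanosterol to cholesterol. The transcription factor SREBP2, encoded by Srebf2, drives most of these genes when membranes are short of sterol. When sterol is plentiful, the Insig proteins hold SREBP2 with its escort Scap in the endoplasmic reticulum. Insig1 is itself a target of SREBP2, which closes a feedback loop. In early embryos cholesterol is needed for membranes and for the maturation of hedgehog proteins.

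The promoters of Mvd, Lss and Insig1 are shown because these genes were lower in CHIRON-treated cells than in both sorted groups. Each sequence is the 250 bases before the transcript start in the RefSeq promoter table (GRCm38.p6), read 5′ to 3′ on the gene's strand. Mvd lies on the minus strand at chr8:122443423-122443672. Lss lies on the plus strand at chr10:76531355-76531604, and the RefSeq gene record of Lss already begins inside this window, at 76531565. Insig1 lies on the plus strand at chr5:28071162-28071411. Capitals mark the box CCAAT, the letters that NF-Y, a partner of SREBP2, binds, as CCAAT or as ATTGG from the opposite strand.

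Mvd: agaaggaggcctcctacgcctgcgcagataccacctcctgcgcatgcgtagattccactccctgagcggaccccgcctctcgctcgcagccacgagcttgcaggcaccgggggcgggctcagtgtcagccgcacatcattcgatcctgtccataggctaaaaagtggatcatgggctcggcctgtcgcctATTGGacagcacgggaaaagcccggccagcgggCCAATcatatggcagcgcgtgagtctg

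Lss: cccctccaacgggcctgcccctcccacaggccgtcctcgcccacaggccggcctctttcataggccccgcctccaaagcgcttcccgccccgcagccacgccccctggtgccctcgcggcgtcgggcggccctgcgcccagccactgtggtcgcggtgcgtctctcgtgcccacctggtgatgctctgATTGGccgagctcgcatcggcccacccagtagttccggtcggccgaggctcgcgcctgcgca

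Insig1: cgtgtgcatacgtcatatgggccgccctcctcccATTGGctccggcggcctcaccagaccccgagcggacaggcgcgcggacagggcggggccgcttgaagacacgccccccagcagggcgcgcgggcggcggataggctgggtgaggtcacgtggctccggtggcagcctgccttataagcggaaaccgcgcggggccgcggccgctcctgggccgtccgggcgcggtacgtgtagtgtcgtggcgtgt

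Promoter windows of 300 bases (250 before and 50 after the start) were found for 5 of the 7 genes: Hmgcs1, Mvd, Idi1, Lss and Insig1. CCAAT on either strand was present in 5 of these 5 windows, against 37.4% of 32851 promoters in the table. Counted from the start, with the base before it at -1, the box stood at -60 to -56 and -27 to -23 in Mvd, at -62 to -58 in Lss and at -216 to -212 in Insig1. Idi1, which did not pass the test in either comparison, also held it, at -45 to -41 and -14 to -10. The GC box GGGCGG was present in 5 of 5 windows, against 35.7% of all promoters. The sterol regulatory element was searched as TCACNCCAC on both strands and was found in Hmgcs1 alone, as TCACCCCAC at -137 to -129, while 1.24% of all promoters held it. The E-box CACGTG was found in Insig1 alone, at -101 to -96, and in 7.15% of all promoters. Among 15 windows of 12 other sterol synthesis genes, 11 held CCAAT, 12 held GGGCGG and 0 held TCACNCCAC. No matches of different motifs overlapped within the 5 windows. These are matches of letters and do not show that a factor binds there. Nor does a missing match to 1 spelling show that no factor binds.

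Mvd, Lss and Insig1 had lower RNA levels in CHIRON-treated cells than in either sorted group, and Sqle and Idi1 did not pass the test. Among the 5 genes the largest difference was that of Mvd, at 0.463 times the level of dsRed2- cells. Levels are normalized log2 signals, on which 1 unit is a 2-fold difference, and each test is limma's moderated test on all 9 arrays with Benjamini-Hochberg adjustment over 13204 genes, called at an adjusted p below 0.05. Against dsRed2- cells, 3 of 5 genes were called lower, while 19.9% of all genes were. Against dsRed2+ cells 3 of 5 were also called lower, beside 20.5% of all genes. The same 3 genes had CHIRON levels below every sorted array. Taken against 1 sorted group at a time, such a gap was seen for 25.6% of all genes against dsRed2- cells and for 26.7% against dsRed2+ cells. The share of all genes below both groups at once was not counted. The median of the 5 log2 differences was -0.57 against dsRed2- cells and -0.61 against dsRed2+ cells, beside medians over all genes of -0.007 and -0.017. Both comparisons use the same CHIRON arrays. In such bulk samples, fewer cells of a type and less RNA per cell cannot be told apart.

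**Figure D1:**
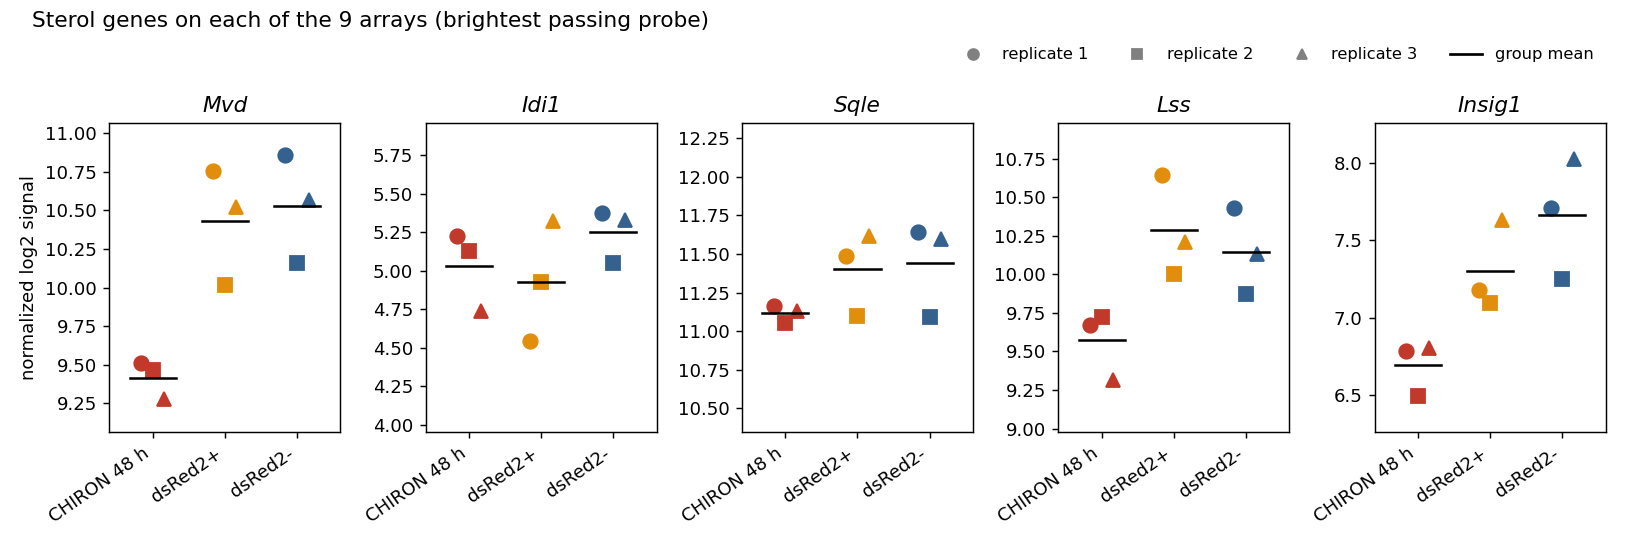
Normalized log2 signal (vertical axes, a separate range per gene) of Mvd, Idi1, Sqle, Lss and Insig1 on each of the 9 arrays, by group (horizontal axis). Points are arrays, their shape gives the replicate number and lines are group means of 3 arrays: Mvd, Lss and Insig1 have all 3 CHIRON arrays below all 6 sorted arrays, and Sqle and Idi1 do not.

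In the mevalonate arm, Mvd encodes mevalonate diphosphate decarboxylase, which makes isopentenyl diphosphate, the isoprenoid building block. Its log2 level was 9.51, 9.46 and 9.28 in the 3 CHIRON replicates, against 10.75, 10.02 and 10.52 in dsRed2+ cells and 10.86, 10.16 and 10.57 in dsRed2- cells. The highest CHIRON array lay 0.65 below the lowest dsRed2- array and 0.51 below the lowest dsRed2+ array. The log2 difference was -1.11 ± 0.21 (SE, n = 3 each) against dsRed2- cells (limma adjusted p = 0.00208). Against dsRed2+ cells it was -1.02 ± 0.21 (limma adjusted p = 0.00334). Of the 5 genes, only Mvd kept its call under all 20 alternative settings in both comparisons.

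Idi1 encodes isopentenyl diphosphate isomerase, the next enzyme of the arm. Its probe was dim: levels were 5.23, 5.13 and 4.74 in CHIRON-treated cells, against 4.54, 4.92 and 5.32 in dsRed2+ cells and 5.37, 5.05 and 5.33 in dsRed2- cells. The lowest log2 level of any detected probe lay between 4.61 and 4.76 on these arrays, and Idi1 was detected on 3 CHIRON, 2 dsRed2+ and 3 dsRed2- arrays. The groups overlapped. The difference from dsRed2- cells was -0.22, with a 95% interval of -0.67 to 0.23 (limma adjusted p = 0.427). From dsRed2+ cells it was 0.10, with an interval of -0.35 to 0.55 (limma adjusted p = 0.732). So close to background, a change of this gene was not detectable within those intervals.

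Squalene is turned into lanosterol by Sqle, squalene epoxidase, and Lss, lanosterol synthase. The brighter Sqle probe read 11.16, 11.06 and 11.13 in CHIRON-treated cells, against 11.49, 11.10 and 11.62 in dsRed2+ cells and 11.64, 11.09 and 11.60 in dsRed2- cells. The CHIRON arrays lay close together, near the level of replicate 2 of both sorted groups, so the groups overlapped. The difference was -0.33 against dsRed2- cells (95% interval -0.72 to 0.07, limma adjusted p = 0.171) and -0.28 against dsRed2+ cells (-0.68 to 0.11, limma adjusted p = 0.229). The dimmer Sqle probe gave another result. It read 8.89, 8.64 and 8.80 in CHIRON-treated cells, against 9.45, 9.03 and 9.60 in dsRed2+ cells and 9.71, 9.11 and 9.33 in dsRed2- cells. There all CHIRON arrays lay below all sorted arrays. With 1 test per probe over 19074 probes, its difference was -0.61 ± 0.19 against dsRed2- cells (limma adjusted p = 0.0224) and -0.59 ± 0.19 against dsRed2+ cells (limma adjusted p = 0.0258). The 2 probes of Sqle thus gave the same sign but stood on different sides of the threshold.

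Lss levels were 9.67, 9.72 and 9.32 in CHIRON-treated cells, against 10.64, 10.00 and 10.21 in dsRed2+ cells and 10.43, 9.88 and 10.13 in dsRed2- cells. All CHIRON arrays were below all sorted arrays, by 0.15 for the nearest dsRed2- array and 0.28 for the nearest dsRed2+ array. The difference was -0.71 ± 0.20 against dsRed2+ cells (limma adjusted p = 0.0149) and -0.57 ± 0.20 against dsRed2- cells (limma adjusted p = 0.0404). The call against dsRed2- cells held in 10 of 20 alternative settings, with adjusted p between 0.0182 and 0.184, and the sign in 20 of 20. It was lost without any single CHIRON replicate, without dsRed2- replicate 1 or 3 and without dsRed2+ replicate 3 (adjusted p between 0.0534 and 0.145). Against dsRed2+ cells the call held in 19 of 20 settings, the exception being the fit without dsRed2+ replicate 1 (difference -0.53, adjusted p = 0.0605).

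On the feedback side, Insig1 levels were 6.78, 6.49 and 6.80 in CHIRON-treated cells, against 7.18, 7.10 and 7.63 in dsRed2+ cells and 7.71, 7.25 and 8.03 in dsRed2- cells. Every CHIRON array lay below every sorted array, while the 2 sorted groups overlapped. The difference was -0.97 ± 0.21 against dsRed2- cells (limma adjusted p = 0.0040) and -0.61 ± 0.21 against dsRed2+ cells (limma adjusted p = 0.0382). The call against dsRed2- cells held in 19 of 20 settings and that against dsRed2+ cells in 11 of 20. The call against dsRed2+ cells was lost without dsRed2+ replicate 1 or 3 and without CHIRON replicate 1 or 2 (adjusted p between 0.0583 and 0.146). Insig1 had 2 further passing probes. They differed by -0.94 and -0.71 against dsRed2- cells (limma adjusted p = 0.0039 and 0.00166), and by -0.59 and -0.28 against dsRed2+ cells (limma adjusted p = 0.0384 and 0.120).

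**Figure D2:**
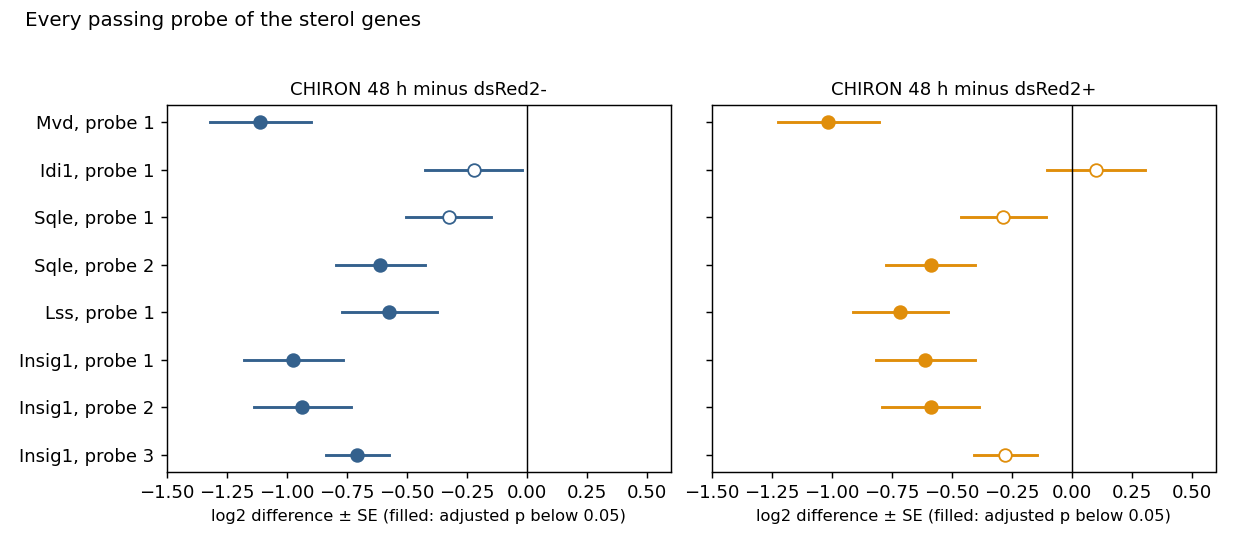
Log2 difference of CHIRON-treated cells minus dsRed2- cells (left) and minus dsRed2+ cells (right) for the 8 passing probes of the 5 genes, probe 1 being the brightest of its gene. Bars are ± 1 SE and filled points have an adjusted p below 0.05 over 19074 probes: probe 2 of Sqle is filled where probe 1 is not, and probe 3 of Insig1 is open on the right.

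The scale of the arrays bears on these values. With median centring in place of quantile normalization, the median over all genes moved to 0.143 against dsRed2- cells and 0.121 against dsRed2+ cells. Of the genes called, 68.7% were then higher in CHIRON-treated cells than in dsRed2- cells, beside 50.2% with quantile normalization, and 65.7% than in dsRed2+ cells, beside 50%. No called difference of the 5 genes changed sign. Relative to that shifted median, Mvd stood at -1.05 and -0.96 against dsRed2- and dsRed2+ cells, Insig1 at -0.85 and -0.49, and Lss at -0.50 and -0.68. Tested against 0 on that scale, Mvd kept both calls, Lss kept the one against dsRed2+ cells (limma adjusted p = 0.0414) and lost the other (0.184), and Insig1 lost both (0.0672 and 0.351).

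Across the rest of the synthesis pathway calls were made in both directions. The list of other sterol synthesis genes holds 14, all tested. Against dsRed2- cells, 4 of 14 were called lower and 3 higher, beside 19.9% lower and 20.1% higher of all genes, so its counts lay near the background. Against dsRed2+ cells, 6 of 14 were lower and 2 higher, beside 20.5% lower and 20.5% higher. The median difference of the 14 genes was -0.23 against dsRed2- cells and -0.41 against dsRed2+ cells. With median centring these were -0.02 and -0.27, beside 0.143 and 0.121 over all genes. Together with the 4 measured enzymes above, 18 of the 20 synthesis genes listed were tested. Of these 18, 6 were lower and 3 higher than in dsRed2- cells, and 8 were lower and 2 higher than in dsRed2+ cells, a count that includes Mvd and Lss.

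Pmvk, phosphomevalonate kinase, hands its product to Mvd. It read 8.19, 8.36 and 7.65 in CHIRON-treated cells, against 9.62, 9.11 and 9.31 in dsRed2+ cells and 9.54, 8.97 and 9.24 in dsRed2- cells. The groups did not overlap, and the differences were -1.28 ± 0.21 against dsRed2+ cells and -1.19 ± 0.21 against dsRed2- cells (limma adjusted p = 0.000885 and 0.00147). Fdps, which closes the arm as farnesyl diphosphate synthase, differed by -0.57 ± 0.12 against dsRed2+ and -0.56 ± 0.12 against dsRed2- cells (limma adjusted p = 0.00266 and 0.00304). A second Fdps probe differed by -0.50 from dsRed2+ cells and -0.36 from dsRed2- cells and was not called. Of the 6 tested genes up to farnesyl diphosphate, Mvd among them, 3 were lower and 0 higher in each comparison, beside 19.9% and 20.5% of all genes that were lower than in dsRed2- and dsRed2+ cells.

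Beyond lanosterol, 2 of 10 genes were lower and 3 higher than in dsRed2- cells, beside 19.9% lower and 20.1% higher of all genes. Against dsRed2+ cells 4 were lower and 2 higher, beside 20.5% of all genes in each direction. Dhcr7, which makes cholesterol from its immediate precursor, read 7.66, 7.56 and 6.94 in CHIRON-treated cells, against 8.90, 8.24 and 8.51 in dsRed2+ cells and 8.81, 8.09 and 8.66 in dsRed2- cells. Its differences were -1.16 ± 0.25 and -1.13 ± 0.25 against dsRed2+ and dsRed2- cells (limma adjusted p = 0.00363 and 0.00432). Hsd17b7, a sterol ketone reductase of the same stretch, went the opposite way. It read 10.26, 10.34 and 11.53 in CHIRON-treated cells, against 8.68, 8.0 and 8.61 in dsRed2+ cells and 8.73, 8.23 and 8.52 in dsRed2- cells. Every CHIRON array was above every sorted array, and the difference was 2.28 ± 0.32 against dsRed2+ cells and 2.22 ± 0.32 against dsRed2- cells (limma adjusted p = 0.000284 and 0.000347). A second Hsd17b7 probe, with 1 test per probe, was higher by 0.85 and 1.05 (limma adjusted p = 0.000329 and 9.27e-05). Both passing probes of Hsd17b7 were thus higher in CHIRON-treated cells.

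**Figure D3:**
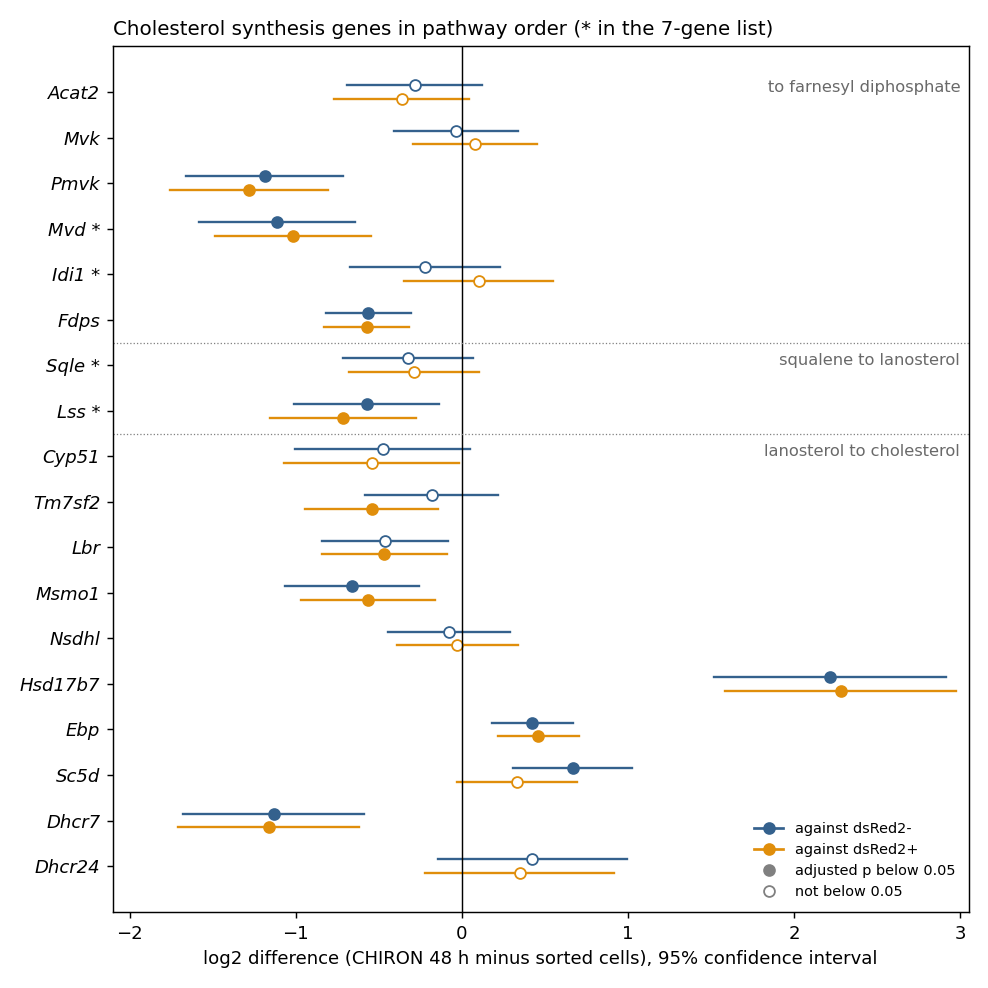
Log2 difference of CHIRON-treated cells minus dsRed2- cells (blue) and minus dsRed2+ cells (orange), with 95% confidence intervals, for 18 synthesis genes from the first step at the top to cholesterol at the bottom. Filled points have an adjusted p below 0.05 and an asterisk marks Mvd, Idi1, Sqle and Lss: the lower genes are spread along the chain, and Hsd17b7 stands far to the right at 2.22 and 2.28.

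The gene of the pathway's transcription factor, SREBP2, was also lower. Srebf2 read 8.18, 8.40 and 8.09 in CHIRON-treated cells, against 9.54, 9.0 and 9.44 in dsRed2+ cells and 9.35, 9.23 and 9.35 in dsRed2- cells. The groups did not overlap, and Srebf2 differed by -1.10 ± 0.16 from dsRed2+ cells and by -1.09 ± 0.16 from dsRed2- cells (limma adjusted p = 0.00031 and 0.000354). Its second probe differed by -1.15 and -1.10 (limma adjusted p = 0.000298 and 0.000405). Insig2, the paralogue of Insig1, differed by -0.46 ± 0.12 from dsRed2- cells (limma adjusted p = 0.0117) and by -0.24 ± 0.12 from dsRed2+ cells (0.149). A second Insig2 probe differed by -0.15 from dsRed2- cells and -0.04 from dsRed2+ cells and was not called. Erlin2, a membrane protein of the endoplasmic reticulum, was higher by 0.73 ± 0.17 than in dsRed2+ cells and by 0.56 ± 0.17 than in dsRed2- cells (limma adjusted p = 0.00626 and 0.0248). Its 2 further passing probes were not called in either comparison, and 1 of them differed by -0.11 from dsRed2+ cells. With the mean of each gene's probes 0 genes of the regulation list were called higher. Scap, the SREBP escort, differed by 0.27 ± 0.15 from dsRed2- cells and was not called. Of 9 genes tested on the regulation list, 2 were lower and 1 higher in each comparison. That is near the share of all genes, 19.9% lower and 20.1% higher against dsRed2- cells and 20.5% in each direction against dsRed2+ cells. The list's median against dsRed2- cells was -0.16, beside -0.007 over all genes. With median centring it was 0.08, beside 0.143 over all genes. Against dsRed2+ cells the list's median was 0.01, beside -0.017 over all genes.

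Of 11 tested genes for uptake and transport, 2 were lower and 1 higher in each CHIRON comparison. The lower calls were near the 19.9% and 20.5% of all genes called lower than in dsRed2- and dsRed2+ cells, and with median centring 0 were called lower. The median against dsRed2- cells was 0.04, beside -0.007 over all genes, and 0.25 with median centring, beside 0.143 over all genes. Against dsRed2+ cells the median was -0.26, beside -0.017 over all genes, and 8 of the 11 mean differences were below 0. Lrp8, a lipoprotein receptor, differed by -0.57 ± 0.15 and -0.51 ± 0.15 against dsRed2+ and dsRed2- cells (limma adjusted p = 0.0127 and 0.0230), but its 2 further probes were not called in either comparison. Vldlr differed by -0.46 ± 0.12 from dsRed2+ cells (limma adjusted p = 0.0132) and by -0.31 ± 0.12 from dsRed2- cells (0.0723). Of its 2 further probes, both were called lower than in dsRed2+ cells and 1 was called lower than in dsRed2- cells, at -0.36 (limma adjusted p = 0.0407 over all probes). Stard4, which carries cholesterol inside the cell, differed by -0.63 ± 0.23 from dsRed2- cells (limma adjusted p = 0.0471) and by -0.53 ± 0.23 from dsRed2+ cells (0.0831). Npc2, which helps cholesterol leave lysosomes, was higher by 0.60 ± 0.14 and 0.49 ± 0.14 against dsRed2+ and dsRed2- cells (limma adjusted p = 0.00622 and 0.0184).

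Neighbouring lipid pathways were counted in the same way. Of 11 fatty acid synthesis genes tested, 3 were lower and 1 higher than in dsRed2- cells, and 5 were lower and 1 higher than in dsRed2+ cells. Of all genes, 19.9% were lower and 20.1% higher than in dsRed2- cells, and 20.5% were called in each direction against dsRed2+ cells. Acss2, which makes acetyl-CoA from acetate, differed by -1.68 ± 0.32 and -1.60 ± 0.32 against dsRed2+ and dsRed2- cells (limma adjusted p = 0.00204 and 0.00281). Acacb and Mid1ip1, an acetyl-CoA carboxylase and its activator, differed from dsRed2- cells by -1.21 ± 0.22 and -0.85 ± 0.17, and the desaturase gene Scd2 by 0.85 ± 0.18 (limma adjusted p = 0.00152, 0.00295 and 0.00316). On the CHIRON arrays Acacb read 5.24, 5.15 and 4.76, near the lowest detected levels of 4.61, 4.66 and 4.64.

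Of 10 efflux genes 4 passed the detection filter. Of these, 1 was lower and 2 higher in each comparison, beside 19.9% to 20.5% of all genes in each direction, and 1 of the higher, Cyp27a1, passed the filter only through the CHIRON arrays. Apoe, a lipoprotein component through which cells export cholesterol, read 8.83, 8.78 and 7.92 in CHIRON-treated cells, against 10.55, 10.06 and 10.54 in dsRed2+ cells and 10.97, 10.03 and 10.54 in dsRed2- cells. The groups did not overlap, with differences of -1.87 ± 0.29 and -2.0 ± 0.29 (limma adjusted p = 0.000503 and 0.000349). Lpcat3, a phospholipid remodelling enzyme, was higher by 0.65 ± 0.14 than in dsRed2- cells (limma adjusted p = 0.00401), and its second passing probe, at 0.44, was not called in either comparison. Cyp27a1, a sterol hydroxylase, was detected on 3 CHIRON arrays and on 0 of the 6 sorted arrays, and was at least 1.45-fold higher than in either sorted group (limma adjusted p = 0.000601 and 0.000983 against dsRed2+ and dsRed2- cells). That bound sets the CHIRON mean against the higher of the lowest detected level and the probe's own level on each sorted array. Since a probe seen on the CHIRON arrays alone had to differ in order to be tested, this is a description and its p supports nothing. Nr1h2 differed by 0.17 ± 0.12 from dsRed2- cells and was not called.

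Isoprenoid branches leave the mevalonate arm for other products. Of 11 genes tested there, 2 were lower and 2 higher than in dsRed2- cells, and 2 were lower and 3 higher than in dsRed2+ cells, near the 19.9% to 20.5% of all genes called in each direction. Against dsRed2- cells, 4 were lower and 2 higher with the mean of each gene's probes, and 0 lower and 3 higher with median centring. Fnta and Icmt, not called here, each had a second probe that was called lower in both comparisons. The prenyltransferase subunit genes Rabggta and Rabggtb stood on opposite sides, at -0.70 ± 0.13 and 0.69 ± 0.16 against dsRed2- cells (limma adjusted p = 0.0019 and 0.00558). Nus1, for dolichol synthesis, differed by -0.85 ± 0.18, and Pdss1, for the ubiquinone side chain, by 0.89 ± 0.19 (limma adjusted p = 0.00326 and 0.00371).

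Between the 2 sorted groups 0 of the 5 sterol genes were called. Limma called 0% of the 13204 genes, of which 370 had an unadjusted p below 0.05. Same-numbered sorted arrays deviated together, so each dsRed2+ array was also set against the dsRed2- array of its number. The Insig1 level was below its dsRed2- partner in dsRed2+ cells in 3 of 3 pairs, with differences of -0.53, -0.15 and -0.40. Its mean difference was -0.36 ± 0.21 in the unpaired fit (95% interval -0.83 to 0.10), an interval that leaves the pairing out. In the paired fit of the 6 sorted arrays Insig1 had an unadjusted limma p of 0.0116 and an adjusted p of 0.393. Its dimmest passing probe differed by -0.43 ± 0.13 in the unpaired fit and was not called. Lss had pair differences of 0.21, 0.12 and 0.08, and Mvd of -0.10, -0.14 and -0.05, each with 1 sign in 3 of 3 pairs. In the unpaired fit the mean differences and 95% intervals were 0.14 (-0.30 to 0.58) for Lss, -0.10 (-0.57 to 0.37) for Mvd, -0.04 (-0.43 to 0.35) for Sqle and -0.32 (-0.77 to 0.13) for Idi1. In the paired fit their limma adjusted p was 0.720, 0.813, 0.939 and 0.615, in that order. In that paired fit 1210 of the 13204 genes had an unadjusted limma p below 0.05, beside 370 in the unpaired fit. The paired fit called 3 genes of all, Eif2s3y, Prxl2a and Tmem223, each lower in dsRed2+ cells and none on the lists used here. Of the 14 other sterol synthesis genes, 0 were called in either fit.

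The sterol genes shared a pattern among the sorted replicates. For 4 of the 5 genes (80%) replicate 2 had the lowest level in both sorted groups, and the same held for 11 of the 14 other synthesis genes (78.6%). Replicate 2 was lowest in both sorted groups for 19.3% of all genes. This count was added after the values had been seen. Replicate 2 minus the mean of replicates 1 and 3 was -0.62 in dsRed2+ cells and -0.55 in dsRed2- cells for Mvd. For Sqle these values were -0.45 and -0.53, for Lss -0.43 and -0.40, and for Insig1 -0.31 and -0.62. Idi1, the exception, had its lowest dsRed2+ level in replicate 1. Of 11 fatty acid synthesis genes, 7 shared the pattern (63.6%), of 11 uptake and transport genes 6 (54.5%), of 9 regulation genes 3 (33.3%), of 4 efflux genes 1 (25%), and of 11 isoprenoid branch genes 0 (0%). The 2 arrays of replicate 2 had median raw signals of 101 and 100.5, against 95.1 to 103 on the other 4 sorted arrays, and 37.7% and 36.7% of their probes were detected, against 37.3% to 38.5%. The part of signal or detection in the pattern was not tested. The SD of Mvd over replicates was 0.12 in CHIRON-treated cells, against 0.38 in dsRed2+ and 0.35 in dsRed2- cells. In the same order the SDs were 0.06, 0.27 and 0.30 for Sqle and 0.17, 0.29 and 0.39 for Insig1. They were 0.22, 0.33 and 0.28 for Lss and 0.26, 0.39 and 0.17 for Idi1.

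**Figure D4:**
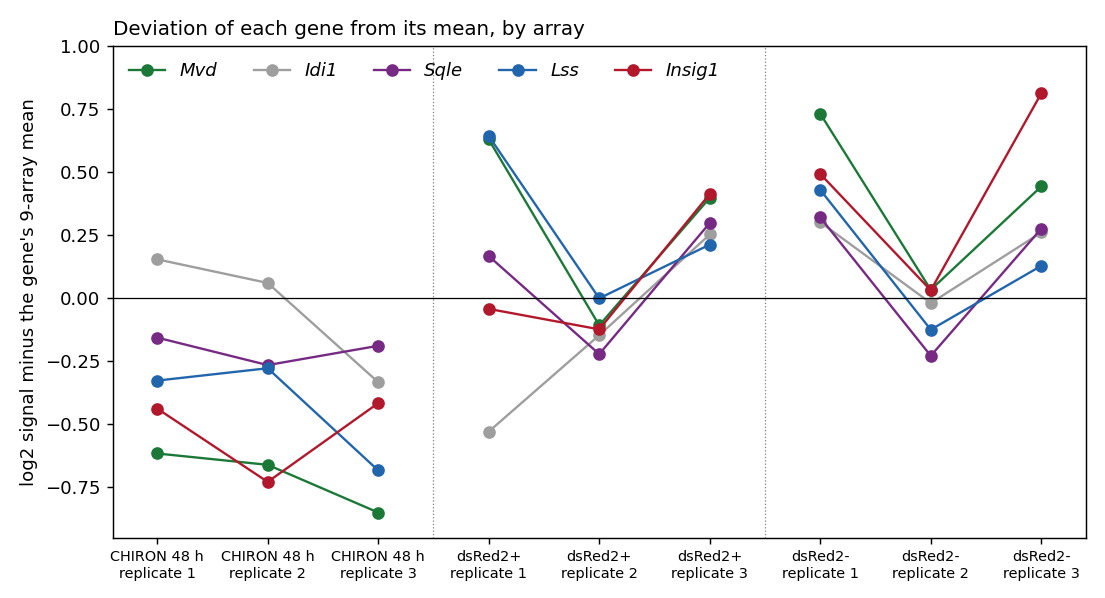
Log2 signal of Mvd, Idi1, Sqle, Lss and Insig1 minus each gene's mean over the 9 arrays (vertical axis), by array (horizontal axis), with lines that only join points of 1 gene within a group. In both sorted groups replicate 2 is the lowest point of Mvd, Sqle, Lss and Insig1, and the CHIRON arrays lie below 0 for these 4 genes.

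Taken within groups, as deviations from the group means, Mvd went closely with Lss (r = 0.92 over 9 arrays) and with Sqle (r = 0.86), and Sqle with Insig1 (r = 0.83). Lss and Insig1 went together less closely (r = 0.12), and so did Idi1 and Lss (r = 0.06). These correlations describe 9 arrays, and same-numbered sorted arrays share their replicate.

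The mean profile of the 5 genes over the 9 arrays was most like that of Slc45a4 (r = 0.990), Trim63 (0.987), LOC672498 (0.978), Slc39a8 (0.977) and Tmem254a (0.975), among 13199 other genes. This likeness includes the difference between the groups. Within groups the 5 closest genes included Eif4h (r = 0.982), Slc45a4 (0.974), ENPP3 (0.973) and Edem2 (0.972). Slc45a4 stood among the 5 closest on both measures. The sterol methyl oxidase gene Msmo1 was the first gene of the pathway in the ranking over the 9 arrays, at rank 37 (r = 0.958), and Stard4 followed at rank 56 (r = 0.952).

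Summed levels of cell type markers were set beside these results, with no test of the sums. Markers such as Sox17 that were seen on the CHIRON arrays alone passed the detection filter only through them. Of 10 epiblast stem cell markers 9 were tested, and all 9 were detected on every array. Their summed level ranged from 7579.8 to 13338 in CHIRON-treated cells, against 13964 to 17141 in dsRed2+ cells and 13702 to 14827.5 in dsRed2- cells. Single markers were called in both directions. Fgf5 and Otx2 were higher than in dsRed2- cells, by 1.83 and 1.22 (limma adjusted p = 0.000216 and 0.0339). Nanog, Utf1, Pou5f1, Sox2 and Sall2 were called lower than in dsRed2- cells, and Dnmt3b and Pim2 were not called. All 5 definitive endoderm markers were tested, with sums of 1524 to 2587 in CHIRON-treated cells, against 98.8 to 118 and 104 to 111 in dsRed2+ and dsRed2- cells, where Sox17, Foxa2 and Gata6 were detected on 0 arrays. Of 8 visceral endoderm markers 3 were tested, summing to 310 to 362 in CHIRON-treated cells, against 66.6 to 79.1 and 68.2 to 87.8, with Apoa1 detected on 0 sorted arrays. Of 5 trophoblast markers 3 were tested, summing to 540 to 749, against 171 to 214 and 235 to 322. Of 10 fibroblast markers 5 were tested, with sums of 1686 to 8767 in CHIRON-treated cells, against 848 to 965 and 1110 to 2095, so that the CHIRON and dsRed2- ranges overlapped. The 5 did not move together. Thy1 was lower than in dsRed2- and dsRed2+ cells, by -2.40 and -2.39 (limma adjusted p = 6.27e-05 and 6.18e-05). Col1a1 and Col6a1 were higher than in dsRed2- cells, by 2.55 and 1.62 (limma adjusted p = 0.00297 and 0.000463). Against dsRed2+ cells Col1a1, Col6a1 and Acta2 were higher by 3.14, 2.14 and 2.16 (limma adjusted p = 0.000833, 7.97e-05 and 0.0155). Acta2 was not called against dsRed2- cells and Bgn in neither comparison, and Col1a2, Col3a1, Dcn, Lum and Postn were not tested. Median raw signals ranged from 98.9 to 109 on the CHIRON arrays and from 95.1 to 103 on the sorted arrays. The part of these marker levels in the values of the sterol genes was not tested.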

How the data were processed

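Mean bead signals of each probe and array were deposited as intensity on a linear scale before any normalization, per the file headers, together with a detection p-value for every probe and array. The authors also deposited log2 values, normalized between arrays by lumi as the submitters' processing notes name it; its version and settings are not stated in these sources. RNA came from RNeasy columns and was labelled with a TotalPrep kit, per the labels' protocols.

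From the intensities, background was removed with neqc in limma 3.58.1 (R 4.3.3), which infers the noise from detection p-values and applies normexp, adds 16, quantile-normalizes and takes log2. Probes detected at p below 0.05 on at least 3 arrays were kept (19074). The brightest passing probe on average stood for a gene (13204 genes). Of 30869 symbols in the signal table, 16219 are current, 5710 were updated by an unambiguous synonym and 8940 were left as given. lmFit and eBayes were run on 9 arrays, two-sided. The procedure was tested on simulated data with independent arrays, which leaves out the likeness of same-numbered sorted arrays. An exact permutation test of 3 against 3 arrays cannot give a p below 0.1 and was not used. The number of arrays limits the precision.

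The 7 genes, the gene lists and the order of the pathway were chosen with earlier results of these data known, so no p-value was adjusted over a list alone. Named genes are the 7, up to 4 genes per list with the smallest p against dsRed2- cells, and the 5 genes most like the mean profile by each measure; Msmo1 and the 3 genes of the paired fit were added after their values were seen. Some genes are not reported here, and the counts of their lists leave them out. Replicate numbers come from the labels. Deviations of same-numbered sorted arrays from their group means correlated at 0.536, 0.583 and 0.351, so these arrays were taken as pairs; for CHIRON and sorted arrays of the same number the values lay between -0.145 and 0.101, so those were not. CHIRON replicates 1 and 2 were the closest pair of arrays (SD of log2 differences 0.123 over 1559 bright genes, against 0.204 to 0.345 for other pairs within groups), and averaging them was 1 of the alternatives. The others were no background correction, the authors' values, median centring, other filters and probe rules, a replicate block, array weights, fits on 6 arrays and leaving out each array. Sequences are RefSeq's (GRCm38.p6).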

Additional observations from a re-analysis of the deposited data

How the results depend on the processing

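With median centring, 1 of the 5 sterol genes, Mvd, was called against dsRed2- cells, in place of 3. Leaving out 1 array at a time gave 2 to 4 called against dsRed2- cells, with Sqle joining without dsRed2- replicate 2 (adjusted p = 0.0385), and 1 to 3 against dsRed2+ cells, the lowest without dsRed2+ replicate 1. Mvd was called in 20 of 20 alternatives in both comparisons, with differences between -1.29 and -0.90 against dsRed2- cells. Lss and Insig1 were also lost with no filter on detection, where more genes are tested (adjusted p = 0.100 against dsRed2- cells for Lss and 0.101 against dsRed2+ cells for Insig1), and with CHIRON replicates 1 and 2 averaged (0.0573 and 0.0860); with the authors' deposited log2 values these were 0.0553 and 0.0686. Beyond this construction the causes were not tested. No call of a listed gene reversed; over all listed genes and alternatives, 1221 values stood on the same side of the threshold against dsRed2- cells, 46 lost and 26 gained a call, and against dsRed2+ cells 1179, 91 and 23. With a replicate block in the fit of 9 arrays, 5578 and 5761 genes were called against dsRed2- and dsRed2+ cells, in place of 5280 and 5420, and 0 between the sorted groups; the paired fit of the sorted groups, a replicate block on 6 arrays, called 3. The block changed no call of the 5 sterol genes. The share of promoters with the sterol regulatory element was 0.551% with the single spelling TCACCCCAC and 1.05% in the bases before the start alone, beside 1.24%. Signal limits Idi1, whose probe lay near the lowest detected level.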
